A study of Mus musculus with 20 samples.

Results

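Mesothelial and epithelial genes mark the sheets of cells that cover an organ or line a duct, and 10 such genes were named for epididymal white adipose tissue (eWAT) of mice. They were the mesothelial genes Msln, Upk3b, Upk1b, Wt1 and Lrrn4 and the epithelial genes Krt8, Krt18, Krt19, Spint2 and Cldn3. The members were those of the 10 that could be matched by Ensembl identifier to the table of 14776 genes. This gave 4 members, Lrrn4, Krt18, Krt19 and Spint2, and the other 6 were not analysed here. Every value in the table was above 0 in every mouse, so a gene had to have a value in each of the 20 mice to be a member, and no count over the 4 stands for the 10.

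RNA sequencing measured eWAT of male C57BL/6J mice, 1 library per mouse, in 3 groups. Normal control mice (NC, n = 6) ate a maintenance feed, and high-fat diet mice (HFD, n = 7) were fed a diet in which fat supplied 60% of the energy, with saline by gavage. SZ-A mice (n = 7) ate the same high-fat diet and received Ramulus Mori (Sangzhi) alkaloids, a mulberry-twig preparation, at 400 mg/kg per day. Mice were 6 weeks old at the start, and 14 weeks of feeding were followed by 6 weeks of gavage. Values were FPKM, which divide a gene's read fragments by its length and by the size of its library and so can be set side by side between genes. Depth ranged from 13567667 to 19388628 reads on genes per mouse. One library went against its tissue label: in NC replicate 6 the summed FPKM of 12 adipocyte genes was 507, against 9269 to 22333 in the other NC mice, so the members' results against NC are given with and without it, and the lists' counts against NC are given without it where they differ.

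Mesothelium is a single layer of flat cells of mesodermal origin that covers the abdominal organs and the visceral fat pads, where it makes a lubricating surface and borders the adipose stroma. Like the epithelium of ducts it holds simple keratins, but it lacks many of the adhesion proteins that duct cells use. The mouse epididymal fat pad lies against the epididymis, a coiled duct lined by such an epithelium and wrapped in smooth muscle. In bulk tissue, fewer cells of a type and less RNA per cell cannot be told apart.

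Lrrn4 encodes a leucine-rich repeat membrane protein used as a mesothelial marker, and lies on chr2:132868305-132880891 on the minus strand (GRCm38, ENSMUSG00000043110). Krt18, on chr15:102028180-102032027 on the plus strand (ENSMUSG00000023043), encodes the type I keratin that pairs with keratin 8 in simple epithelia. Krt19, on chr11:100140810-100148665 on the minus strand (ENSMUSG00000020911), encodes another type I keratin of ducts and mesothelium. Spint2, on chr7:29256323-29281912 on the minus strand (ENSMUSG00000074227), encodes a membrane-bound Kunitz inhibitor of serine proteases, among them the protease encoded by St14. None of the 4 overlaps another annotated gene.

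The promoters of Krt18 and Spint2 are shown because their levels moved together across mice, and that of Lrrn4 because its level did not move with theirs. Each is taken from RefSeq (GRCm38.p6) and runs 5′ to 3′ from 250 bases before to 50 bases after the RefSeq start. The RefSeq starts differ from the gene bounds given above, and the Spint2 window lies wholly upstream of its bound. Capitals mark each match to the E-box letters CAGGTG or, on the other strand, CACCTG, which repressors and activators of epithelial genes can bind. RefSeq promoters matched 3 of the 4 members, and Krt19 is named only. The windows are chr2:132880813-132881112, minus strand, for Lrrn4, chr15:102027966-102028265, plus strand, for Krt18, and chr7:29281928-29282227, minus strand, for Spint2.
Lrrn4: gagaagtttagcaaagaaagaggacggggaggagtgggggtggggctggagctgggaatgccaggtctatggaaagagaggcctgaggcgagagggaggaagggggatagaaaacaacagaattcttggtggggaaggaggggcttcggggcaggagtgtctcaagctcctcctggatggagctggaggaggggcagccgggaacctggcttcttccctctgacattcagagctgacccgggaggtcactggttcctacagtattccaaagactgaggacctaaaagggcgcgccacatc
Krt18: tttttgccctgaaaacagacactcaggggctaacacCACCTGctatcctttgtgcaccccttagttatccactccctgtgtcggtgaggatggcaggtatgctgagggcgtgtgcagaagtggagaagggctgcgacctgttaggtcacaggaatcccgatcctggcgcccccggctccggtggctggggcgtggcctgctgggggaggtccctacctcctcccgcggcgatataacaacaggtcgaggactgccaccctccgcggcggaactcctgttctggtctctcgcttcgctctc
Spint2: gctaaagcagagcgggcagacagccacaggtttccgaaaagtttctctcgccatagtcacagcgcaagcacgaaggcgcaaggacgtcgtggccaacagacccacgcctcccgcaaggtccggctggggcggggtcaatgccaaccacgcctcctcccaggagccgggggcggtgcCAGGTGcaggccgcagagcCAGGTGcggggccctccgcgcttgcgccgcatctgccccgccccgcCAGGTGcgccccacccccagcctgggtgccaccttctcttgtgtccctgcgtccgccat
Spint2 held 3 matches, Krt18 held 1 and Lrrn4 held 0, where 20.2% of 32851 mouse promoters of this length hold at least 1. A match describes letters only, and a window without one says nothing of any factor.

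The mesothelial gene Lrrn4 was low in all 3 groups and the groups overlapped. In NC it ranged from 0.0369 to 9.05 FPKM with a median of 2.13. In HFD it ranged from 1.40 to 5.69 FPKM with a median of 3.03, and in SZ-A from 0.425 to 3.55 FPKM with a median of 1.30. The highest and the lowest of the 20 mice were both NC mice, replicate 3 at 9.05 FPKM and replicate 6 at 0.0369 FPKM, the latter resting on 2 reads. Without replicate 6, the lowest NC mouse was replicate 1 at 1.07 FPKM.

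The epithelial genes were high in NC except replicate 3, low in every HFD mouse and split in SZ-A. NC replicate 3 had 5.85, 6.68 and 5.10 FPKM of Krt18, Krt19 and Spint2. Krt18 ranged from 5.85 to 454 FPKM in NC, with a median of 103. In HFD, Krt18 ranged from 0.706 to 3.23 FPKM with a median of 1.48. In SZ-A, it ran from 0.0380 FPKM, which was 1 read, to 168 FPKM, with a median of 1.29. All 7 HFD mice lay below all 6 NC mice, whereas the SZ-A mice lay on both sides of the HFD range. Krt18 was above every HFD mouse in SZ-A replicates 2, 3 and 7, at 119, 30.0 and 168 FPKM. It was below every HFD mouse in SZ-A replicates 4, 5 and 6, at 0.277, 0.200 and 0.0380 FPKM. SZ-A replicate 1, at 1.29 FPKM, lay within the HFD range.

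Krt19 was also highest in NC, with more overlap between groups. It ranged from 6.68 to 262 FPKM in NC, with a median of 64.3. In HFD it ranged from 1.94 to 8.34 FPKM with a median of 3.22, and the highest HFD mouse, replicate 7, lay above the lowest NC mouse, replicate 3. In SZ-A it ranged from 0.0295 FPKM, again 1 read, to 39.9 FPKM, with a median of 4.24. The same SZ-A replicates 2, 3 and 7 held the highest Krt19 of their group, at 28.5, 14.3 and 39.9 FPKM.

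For Spint2 no SZ-A mouse fell into the HFD range, whereas mice of both groups overlapped for the keratins. It ranged from 5.10 to 239 FPKM in NC, with a median of 56.4. In HFD it ranged from 1.72 to 4.53 FPKM with a median of 2.65. In SZ-A it ranged from 4.64 to 88.0 FPKM with a median of 8.50, so that the lowest SZ-A mouse and the highest HFD mouse were close. SZ-A replicates 4, 5 and 6, which had the least Krt18 of all mice, had 8.50, 8.30 and 4.64 FPKM of Spint2.

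**Figure D1:**
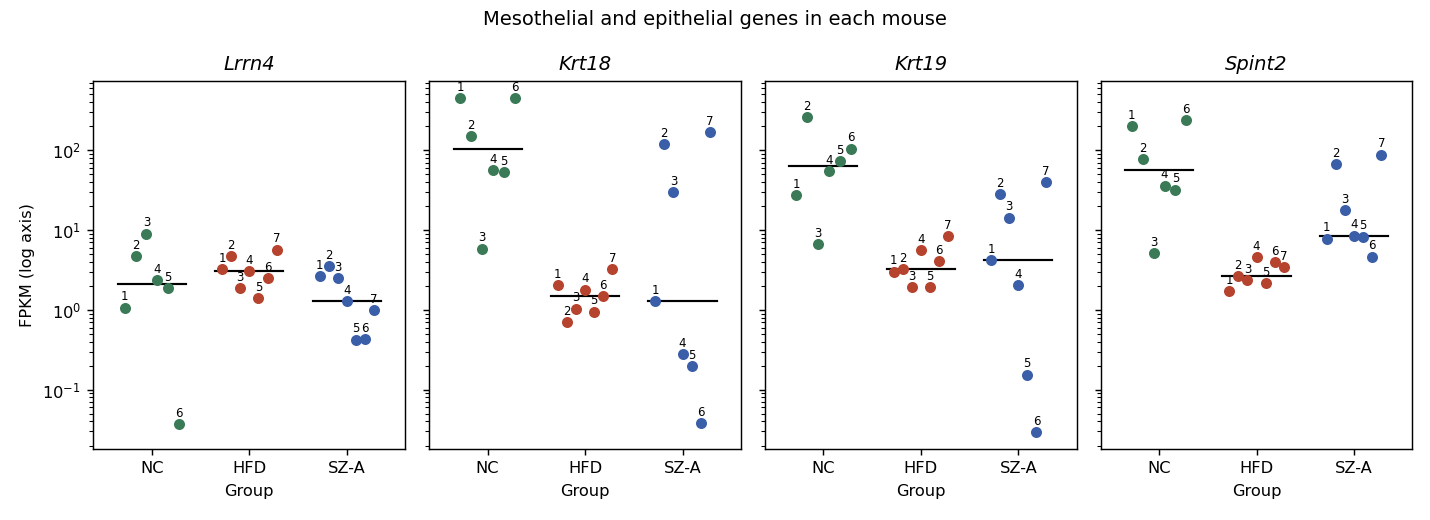
FPKM (log axis) of Lrrn4, Krt18, Krt19 and Spint2 in each mouse of NC (n = 6), HFD (n = 7) and SZ-A (n = 7); points are mice with their replicate number and lines are group medians. The 7 HFD mice span less than the NC and the SZ-A mice in every panel, with a highest value 2.63 to 4.58 times the lowest. The keratins in SZ-A spread from 1 read to 168 FPKM for Krt18 and to 39.9 FPKM for Krt19.

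The comparison of HFD with NC asked what the high-fat diet changed in the fat pad. Krt18, Krt19 and Spint2 fell in HFD, and Lrrn4 did not pass the test. Differences are given on the log2(FPKM + 1) scale, which understates the change of low genes, and a gene passed at a limma adjusted p under 0.05 with a log2 fold change beyond 1.5 in either direction. Of 14706 genes tested, 5.43% passed as higher and 2.54% as lower, and the 2 groups did not overlap in 20.5%. Krt18 fell by 5.23 on the log2 scale (SE 0.79, limma adjusted p = 1.8e-04). Spint2 fell by 3.84 (SE 0.68, limma adjusted p = 5.8e-04). Krt19 fell by 3.55 (SE 0.63, limma adjusted p = 6.1e-04). The groups did not overlap for Krt18 and Spint2 and overlapped for Krt19. For Spint2 the margin was narrow, with NC replicate 3 at 5.10 FPKM and the highest HFD mouse at 4.53 FPKM. For Lrrn4 the log2 difference of HFD minus NC was 0.29 (SE 0.43, limma adjusted p = 0.62), and its 95% interval ran from -0.65 to 1.22.

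Without NC replicate 6, Krt18, Krt19 and Spint2 still passed, with log2 differences of -4.77, -3.36 and -3.41 and limma adjusted p of 2.0e-04, 0.0011 and 6.5e-04. That of Lrrn4 was then -0.04 (limma adjusted p = 0.94), so its sign rests on that library. Of 32 listed epididymis genes 2 were analysed, Adgrg2 and Gstm6, and both fell in HFD as the epithelial members did. Their summed FPKM ranged from 16.8 to 488 in NC and from 1.28 to 3.53 in HFD. With the mean log2 level of these 2 genes as a covariate, 0 of the 4 members passed, and the log2 differences of Krt18, Krt19 and Spint2 were -1.34, -1.99 and -0.32. The sum of the 2 genes did not overlap between NC and HFD, so this fit cannot separate the diet from their level. It also moved other genes: of all 14706 genes, 756 passed as higher and 811 as lower in it, against 799 and 373 without the covariate. Among 12 adipocyte genes, 9 passed as lower in it, against 1 without the covariate. The part of neighbouring tissue in the difference was not tested.

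The comparison of SZ-A with HFD asked what the treatment changed in mice on the same diet. Spint2 rose in SZ-A, and the other members did not pass. Of 14695 genes tested, 0.306% passed as higher and 0.558% as lower, and the groups did not overlap in 6.08%. Spint2 was 2.18 higher on the log2 scale (SE 0.54, limma adjusted p = 0.011), higher in 7 of 7 SZ-A mice than in any HFD mouse, with a 95% interval from 1.02 to 3.34. For Krt18 the log2 difference of SZ-A minus HFD was 1.70 (SE 1.12, limma adjusted p = 0.28), with a 95% interval from -0.68 to 4.08. It was 0.97 without SZ-A replicate 7 and 1.05 without SZ-A replicate 2, and passed in neither. That of Krt19 was 0.42 (SE 0.75, limma adjusted p = 0.71), with an interval from -1.19 to 2.03, and was -0.036 without SZ-A replicate 7. That of Lrrn4 was -0.69 (SE 0.29, limma adjusted p = 0.097), with an interval from -1.32 to -0.07.

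Adgrg2 and Gstm6 also rose in SZ-A against HFD, by 1.92 (SE 0.60, limma adjusted p = 0.032) and 2.61 (SE 0.65, limma adjusted p = 0.011) on the log2 scale. Their summed FPKM ranged from 4.94 to 155 in SZ-A and was highest in replicates 2 and 7, at 155 and 124, with replicate 3 next at 23.9. In replicate 7 the sum was mostly Gstm6, at 118 FPKM, with Adgrg2 at 5.84 FPKM. With their mean level as a covariate, the difference of Spint2 was 0.15 and did not pass (limma adjusted p = 0.75). In that fit Krt18 and Krt19 passed as lower in SZ-A, with log2 differences of -2.43 and -2.30 (limma adjusted p = 0.029 and 0.015). Of all 14695 genes, 136 passed as higher and 69 as lower in it, against 45 and 82 without the covariate. Each SZ-A mouse had more Adgrg2 and Gstm6 than any HFD mouse. The lowest SZ-A values were 1.80 and 3.13 FPKM, against HFD maxima of 1.75 and 1.95 FPKM. This held in SZ-A replicates 4, 5 and 6, with less Krt18 than any HFD mouse, and in replicate 1, within the HFD range of Krt18. Their level thus set these SZ-A mice against HFD otherwise than Krt18 did, but as Spint2 did, which was also above every HFD mouse. How far the level of these 2 genes accounts for either result, and its source, was not tested.

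In SZ-A against NC, 0 of the 4 members passed in the limma test. Krt18 and Krt19 had an unadjusted limma p of 0.028 and 0.0068, and the share of all genes under 0.05 without adjustment was not counted. Of 14718 genes tested, 1.73% passed as higher and 0.0544% as lower, and the groups did not overlap in 3.57%. The log2 difference of SZ-A minus NC was -3.53 for Krt18 (SE 1.43, limma adjusted p = 0.19). It was -3.13 for Krt19 (SE 0.99, limma adjusted p = 0.092). It was -1.66 for Spint2 (SE 0.88, limma adjusted p = 0.32) and -0.41 for Lrrn4 (SE 0.46, limma adjusted p = 0.67). In an exact two-sided permutation test over 1716 regroupings, the unadjusted p was 0.053 for Krt18, 0.019 for Krt19, 0.12 for Spint2 and 0.44 for Lrrn4. Without NC replicate 6, the log2 differences in the same order were -3.07, -2.94, -1.23 and -0.74, and 0 members passed. Without NC replicate 3, Krt19 passed, with a log2 difference of -3.69 (limma adjusted p = 0.040), and with all 3 groups in the fit it passed at an adjusted p of 0.021. The comparisons share mice, and each is given by its own values.

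**Figure D2:**
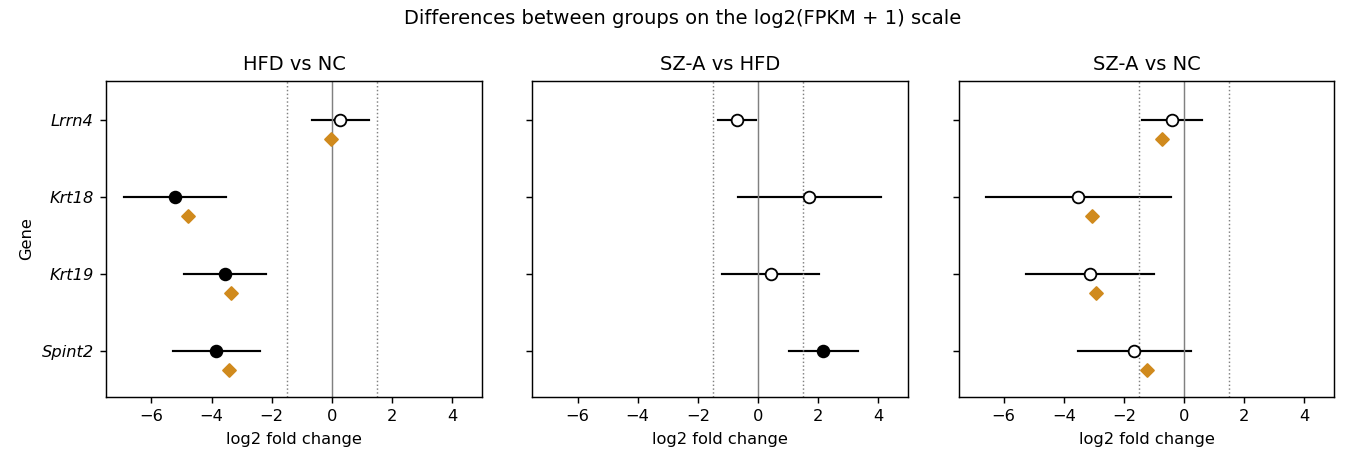
Log2 difference on the log2(FPKM + 1) scale of the 4 members in HFD against NC, SZ-A against HFD and SZ-A against NC; circles with 95% intervals are the test over all mice, filled where the gene passed, diamonds are the value without NC replicate 6, and dotted lines mark 1.5 in either direction. Filled circles stand for Krt18, Krt19 and Spint2 in HFD against NC and for Spint2 in SZ-A against HFD.

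The epithelial members varied more between mice of 1 group than most genes did, above all in NC and SZ-A. On the log2(FPKM + 1) scale the SD of Krt18 was 2.29 in NC and 3.29 in SZ-A, against 0.447 in HFD. The median SD of 14716 genes was 0.372 for NC, 0.325 for SZ-A and 0.193 for HFD. In HFD, 8.07% of these genes had a larger SD than Krt18, 3.09% a larger SD than Krt19 and 13.4% a larger SD than Spint2. In SZ-A, 0.00680% of these genes had a larger SD than Krt18, 0.149% a larger SD than Krt19 and 0.578% a larger SD than Spint2. Lrrn4 also varied more than most genes. Its SD was 1.14 among NC mice, 0.523 among HFD mice and 0.672 among SZ-A mice, and 7.32%, 5.14% and 11.3% of genes varied more. The NC value includes replicate 6, with 2 reads.

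Across the 20 mice, with each group's mean removed, the 3 epithelial members varied together and Lrrn4 did not follow them. Pearson r was 0.93 between Krt18 and Spint2, 0.83 between Krt18 and Krt19 and 0.74 between Krt19 and Spint2. Between Lrrn4 and Krt18 it was -0.10, between Lrrn4 and Krt19 0.15 and between Lrrn4 and Spint2 -0.33. These are descriptions over 20 mice, in which genes share a library and its depth. Without NC replicate 6, a setting added after the data were seen, r over 19 mice was 0.93, 0.83 and 0.75 for the first 3 pairs and 0.05, 0.29 and -0.15 for those with Lrrn4. NC replicate 3 had the most Lrrn4 and the least Krt18, Krt19 and Spint2 of the NC mice, and NC replicate 6 had the least Lrrn4 with 452 FPKM of Krt18.

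**Figure D3:**
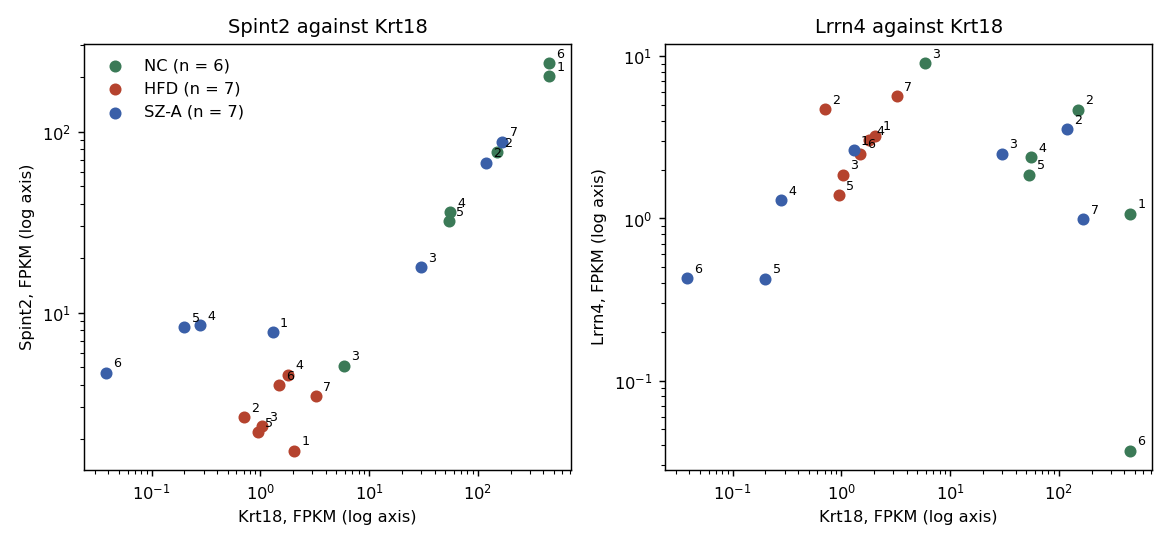
Spint2 (left) and Lrrn4 (right) against Krt18, in FPKM on log axes, with 1 point per mouse, coloured by group and numbered by replicate. Above about the HFD range Spint2 follows Krt18, while SZ-A replicates 4, 5 and 6 keep 4.64 to 8.50 FPKM of Spint2 at 0.0380 to 0.277 FPKM of Krt18, and the mouse with the least Lrrn4 is NC replicate 6.

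The proportion of the keratins also differed between mice. The ratio of Krt18 to Krt19 in FPKM was below 1 in all 7 HFD mice, from 0.219 to 0.675. It was 4.18, 2.10 and 4.22 in SZ-A replicates 2, 3 and 7 and 0.305 and 0.135 in replicates 1 and 4. In SZ-A replicates 5 and 6 it was 1.29, resting on 4 reads and 1 read of each keratin. In NC it ranged from 0.573 in replicate 2 to 16.4 in replicate 1, so mice with much keratin mRNA did not hold it in 1 proportion. The ratio of Krt18 to Spint2 was steadier in NC, from 1.15 to 2.24, and was 1.76, 1.68 and 1.91 in SZ-A replicates 2, 3 and 7. In the other 4 SZ-A mice it was 0.165, 0.0326, 0.0241 and 0.00819.

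The genes most like each member placed Lrrn4 and Krt18 in separate company. By Pearson r over the 20 mice with group means removed, the 5 genes most like Lrrn4 were Nkain4 (0.93), Tmem151a (0.91), Wnt2b (0.87), Rspo1 (0.87) and Gpc3 (0.86). Nkain4 and Rspo1, the latter encoding a secreted enhancer of Wnt signalling, were on the list of other mesothelial genes. Wnt2b encodes a Wnt ligand and Gpc3 a glypican. Their r was 0.80 to 0.91 without NC replicate 6. None of these 5 passed the test in any of the 3 comparisons.

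The 5 genes most like Krt18 were Prom1 (0.96), Stard10 (0.95), Acsbg1 (0.95), Ttc39a (0.95) and Cdh1 (0.95). These values ran from 0.95 to 0.96 without NC replicate 6. Cdh1 encodes E-cadherin, the adhesion protein of epithelial cell junctions, and Prom1 a protein of apical membrane protrusions. Cdh1 ranged from 0.0136 to 71.1 FPKM in NC, the lowest being replicate 3 with 1 read, and from 0.0123 to 0.184 FPKM in HFD. In SZ-A it was 28.4, 2.59 and 26.1 FPKM in replicates 2, 3 and 7 and at most 0.0471 FPKM in the other 4. Prom1, Stard10, Acsbg1 and Cdh1 fell in HFD against NC, by 4.08, 3.99, 1.51 and 4.05 on the log2 scale (limma adjusted p = 9.1e-04, 7.4e-04, 0.0094 and 9.1e-04). Leaving out NC replicate 6, Acsbg1 no longer passed, with a log2 difference of -1.38, and the other 3 did. Ttc39a, with a log2 difference of -1.22, did not pass. Stard10, which encodes a lipid transfer protein, rose in SZ-A against HFD, by 2.09 (SE 0.71, limma adjusted p = 0.044).

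**Figure D4:**
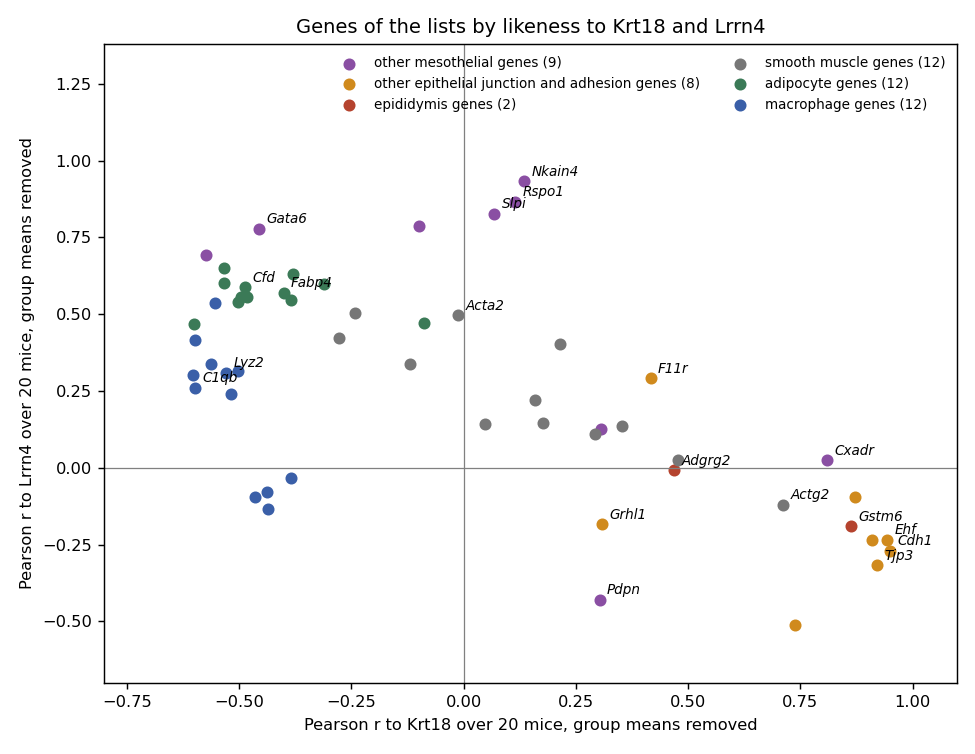
Pearson r to Krt18 (horizontal) and to Lrrn4 (vertical) over the 20 mice, group means removed, for the analysed genes of 6 lists, coloured by list with the number of genes in brackets. Nkain4, Rspo1 and Slpi lie at the top near 0 on the horizontal axis, while Cdh1, Ehf, Tjp3 and Gstm6 lie at the right below 0 on the vertical axis, and Cxadr lies with the epithelial genes.

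Other mesothelial genes did not pass in any comparison. Of 20 listed, 9 were analysed, and 0 of 9 passed in either direction in HFD against NC, where their median log2 difference was 0.22 against -0.04 over all genes tested. Their median was -0.21 in SZ-A against HFD and 0.01 in SZ-A against NC, with medians over all genes of 0.03 and -0.0012. When NC replicate 6 was left out, 0 of 9 passed and the medians against NC were -0.01 for HFD and -0.25 for SZ-A, so their sign or size rests on that library. Slpi, which encodes a secreted inhibitor of leukocyte proteases, was at a median of 10.4 FPKM for NC mice, 29.5 for HFD and 16.3 for SZ-A. Its lowest NC value, 0.116 FPKM, was in replicate 6. Pdpn, which encodes podoplanin of mesothelial and lymphatic cells, had medians of 11.7, 22.8 and 15.5 FPKM. The list was not uniform: r to Lrrn4 was 0.93 for Nkain4 and 0.83 for Slpi, but 0.02 for Cxadr and -0.43 for Pdpn. Without NC replicate 6 these were 0.91, 0.75, 0.43 and -0.09. Cxadr, which encodes a junctional adhesion protein and is singled out here after its values were seen, had an r of 0.81 to Krt18.

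Other epithelial junction and adhesion genes had an r to Krt18 from 0.31 to 0.95. Of 30 listed, 8 were analysed. In HFD against NC 3 of 8 fell and 0 rose, with a median log2 difference of -1.45. The 3 were Cdh1, Ehf, which encodes an epithelial transcription factor, and Tjp3, which encodes a tight junction scaffold. Ehf fell by 3.40 (SE 0.65, limma adjusted p = 0.0010) and Tjp3 by 1.95 (SE 0.53, limma adjusted p = 0.0098), both named because they passed. F11r, a junctional adhesion molecule that blood cells and endothelium also hold, was the most abundant, at a median of 41.8 FPKM for NC mice, 19.0 for HFD and 30.0 for SZ-A. Its log2 difference of HFD minus NC was -1.41 (SE 0.22), within the fold limit. Against HFD, 0 of 8 passed in SZ-A, with a median of 0.60, and against NC 0 of 8 passed, with a median of -1.07. The same 3 genes fell in HFD without NC replicate 6.

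Keratins and genes of the desmosome, the junction to which keratin filaments attach, did not pass as Krt18 and Krt19 did. Of 21 listed, 7 were analysed, and 0 of 7 passed in any of the 3 comparisons. Within the fold limit, the log2 difference of HFD minus NC was -1.12 for Ppl (limma adjusted p = 3.4e-04) and -1.31 for Pkp3 (limma adjusted p = 0.015). That of Krt80 was 0.28 (limma adjusted p = 0.032). Without NC replicate 6 these were -1.17, -0.92 and 0.30. Jup and Pkp2, which encode plaque proteins also made in other tissues, were the most abundant. The median of Jup was 35.1 FPKM for NC mice, 37.1 for HFD and 45.1 for SZ-A. Pkp2 had medians of 16.4, 14.2 and 18.9 FPKM. Their r to Krt18 was -0.46 for Jup and -0.12 for Pkp2. The other 5 had an r to Krt18 of 0.86 (Pkp3), 0.70 (Evpl), 0.61 (Krt10), 0.60 (Ppl) and 0.01 (Krt80), and are named to complete the list.

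Of 10 listed membrane proteases, Kunitz inhibitors and related genes 4 were analysed, and in HFD against NC 1 of 4 rose and 1 fell, while 0 passed in the other comparisons. St14, which encodes the membrane protease matriptase that Spint2 inhibits, fell in HFD against NC by 2.40 (SE 0.61, limma adjusted p = 0.0071). St14 ranged from 0.245 to 50.5 FPKM among NC mice, 0.258 to 0.738 among HFD mice and 0.611 to 9.19 among SZ-A mice. Its r was 0.84 to Krt18. Met, which encodes the receptor of hepatocyte growth factor, had a log2 difference of -1.01 (SE 0.21) and stayed within the fold limit. Hgf, its ligand, rose in HFD against NC by 1.69 (SE 0.12, limma adjusted p = 2.5e-07) and had an r of -0.42 to Krt18. It is named because it passed.

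Genes of neighbouring and other tissues were read in the same mice. Gstm6, a glutathione transferase gene on the epididymis list, had an r of 0.86 to Krt18 and ranged from 1.502 to 266 FPKM in NC. Adgrg2, which encodes an adhesion receptor of the epididymal ducts, had an r of 0.47 to Krt18 and was 420 FPKM in NC replicate 6, against 5.69 to 30.0 in the other NC mice. In NC replicate 3, with the least Krt18 of its group, Gstm6 was also the lowest of its group at 1.502 FPKM, while Adgrg2 was 30.0 FPKM. NC replicate 1 had the most Krt18 of its group, 454 FPKM, and the least Adgrg2, 5.69 FPKM. SZ-A replicate 7 had the most Krt18 of its group, 168 FPKM, with 118 FPKM of Gstm6 and 5.84 FPKM of Adgrg2. Adgrg2 thus did not follow Krt18 in NC replicates 1 and 3 and SZ-A replicate 7. Both were high in SZ-A replicate 2, at 103 FPKM of Adgrg2 and 119 FPKM of Krt18, and in NC replicate 6, at 420 and 452 FPKM. SZ-A replicate 3 had 10.3 and 30.0 FPKM. The source of Adgrg2 was not tested. The remaining genes of the epididymis list were not analysed here.

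Smooth muscle genes split in their likeness to Krt18. All 12 listed were analysed, and 6 fell and 0 rose in HFD against NC, with a median log2 difference of -1.5004. Leaving out NC replicate 6, 7 fell. Actg2, the actin of visceral smooth muscle, had an r of 0.71 to Krt18 and ranged from 5.84 to 1015 FPKM among NC mice, 0.183 to 3.22 among HFD mice and 0.421 to 206 among SZ-A mice. Acta2, the actin that vessels share, had an r of -0.01, or 0.29 without NC replicate 6, and medians of 235, 157 and 171 FPKM.

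Of 15 testis germ cell genes 4 were analysed, and 0 passed in any comparison. Their r to Krt18 was 0.75 for Odf2, 0.73 for Ddx4, 0.51 for Hspa1l and 0.30 for Dazl, named to complete the list. Their summed FPKM was highest in NC replicate 1, at 15.7, and SZ-A replicate 7, at 21.0, which held the most Krt18 of their groups. Odf2 made up most of both sums, at 11.9 and 16.9 FPKM. In HFD the sum ran from 3.12 to 4.17, and its highest mouse, replicate 5, did not hold the most Krt18. Odf2 and Hspa1l were the most abundant, at medians of 4.53 and 0.383 FPKM for NC mice, 3.14 and 0.184 for HFD and 4.40 and 0.331 for SZ-A. Of 12 pancreas acinar genes only Cela1 was analysed, with medians of 5.60, 11.4 and 16.9 FPKM, and it passed in 0 comparisons. Its r to Krt18 was 0.54.

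Among 12 adipocyte genes, Cfd, which encodes adipsin, fell in HFD against NC and rose in SZ-A against HFD, and Lep, which encodes leptin, rose in HFD against NC. The median of Cfd was 6570 FPKM for NC mice, 262 for HFD and 1378 for SZ-A, and that of Fabp4 2085, 1347 and 1844. The summed FPKM of the list ranged from 507 to 22333 among NC mice, 1609 to 6646 among HFD mice and 4493 to 14771 among SZ-A mice. The r of the 12 genes to Krt18 ran from -0.60 to -0.09 and to Lrrn4 from 0.47 to 0.65, which became -0.68 to 0.23 and 0.04 to 0.43 without NC replicate 6. Of 12 macrophage genes, 12 rose in HFD against NC, 5 fell in SZ-A against HFD and 9 rose in SZ-A against NC. When NC replicate 6 was left out, 11 rose in HFD (all but Cd14) and 8 in SZ-A (C1qa no longer passing), and of the adipocyte genes Lep rose and Cfd fell in SZ-A against NC, where 0 had passed. Lyz2 had medians of 243, 2402 and 842 FPKM, and C1qb of 68.7, 696 and 216.

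**Figure D5:**
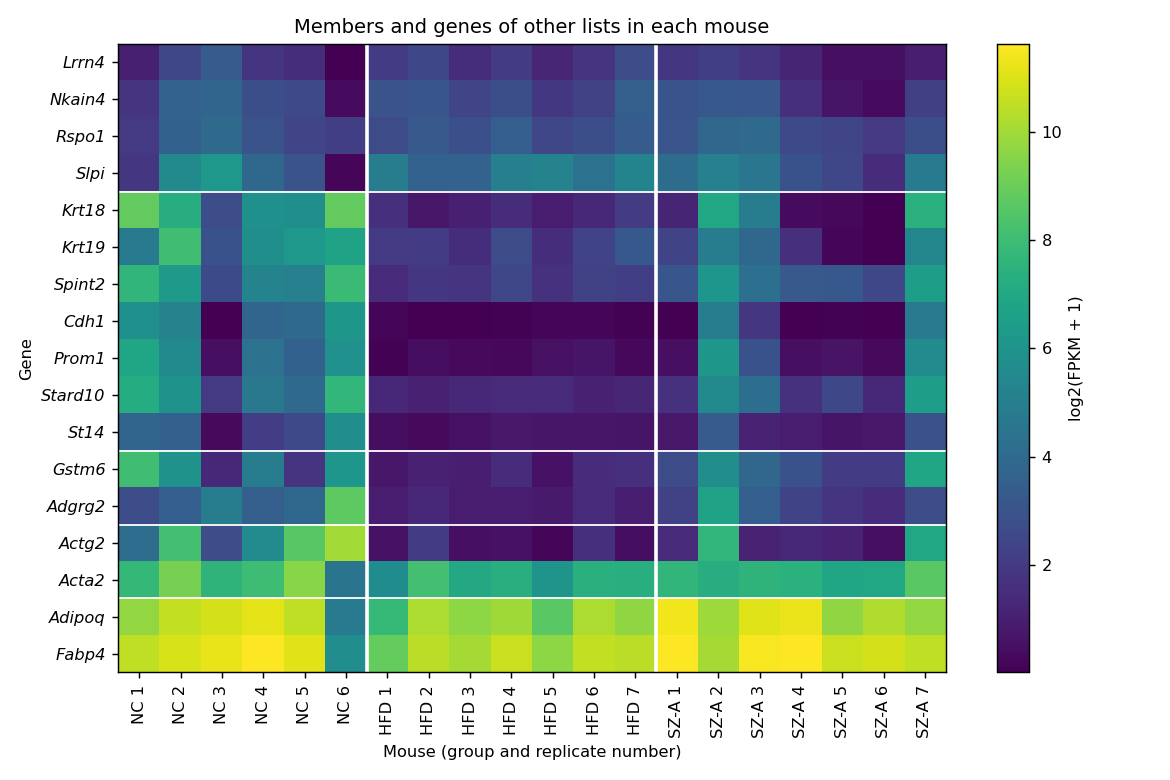
Levels as log2(FPKM + 1) of members and genes of other lists (rows) in the 20 mice (columns, by group and replicate), with white lines between groups and between mesothelial, epithelial, epididymis, smooth muscle and adipocyte genes. NC replicates 1, 2, 4, 5 and 6 and SZ-A replicates 2, 3 and 7 carry the epithelial rows, and NC replicate 6 has 26.6 FPKM of Adipoq, against 222 or more in every other mouse.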

How the data were processed

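Total RNA of eWAT was sequenced in 20 mice as paired-end poly-T libraries. Per the methods, the authors aligned reads to GRCm38 with HISAT2, and the submitters' processing notes name featureCounts 1.5.0-p3. The deposited values were FPKM per gene made by the authors in 1 table for all mice. Strand use in counting and the handling of reads with several matches are not given in the sources used here. FPKM steps gave whole reads (within 0.01 read) for 95.9% to 96.3% of values under 1000 reads, using gene lengths of GENCODE M21, so depth per mouse could be recovered and a count model tried as an alternative. The precision of low values is limited by counting: 1 read was the lowest value.

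Genes that averaged 0.1 FPKM or more in the mice of a comparison were tested with limma 3.58.1 (R 4.3.3, empirical Bayes with trend) on log2(FPKM + 1), with the 2 groups compared in each fit and Benjamini-Hochberg adjustment over all genes. A gene passed with both an adjusted p under 0.05 and a change beyond 1.5 on the log2 scale. The test was run on simulated data for 14705, 14687 and 14709 genes in HFD against NC, SZ-A against HFD and SZ-A against NC, and recovered 200 of 200 genes changed by 2 on the log2 scale in each, with 1, 0 and 0 false calls. The changed genes were drawn from those with a mean log2 level above 2 and a spread below the median, with equal noise in both groups. The members spread more than the median gene and unequally between groups, so this recovery does not speak for genes like them. Groups and replicate numbers came from the titles. Named genes were the members, the 2 most abundant genes of each other list, the 5 genes most like Krt18 and the 5 most like Lrrn4, plus those said to be named otherwise. Lrrn4 stands in for Upk3b, which the rule named and which was not analysed here, and was chosen after the data were seen. The members and lists were chosen with earlier results of these data known. Alternatives were the pseudocount, filter, scaling, weights, variance model, covariate, replicate block, count model and leaving out each mouse; correlations without NC replicate 6 were added after the data were seen. Figures and summaries used Python 3.11.15.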

Additional observations from a re-analysis of the deposited data

Results flagged for a closer look

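In 42 groups of 6 or 7 values (the members and the summed levels of the lists in each group), the gap of the highest or lowest mouse to its neighbour was compared with the group's range, and 2 stood apart by Dixon's 95% limit. Chance gives about 1 in 20. The summed FPKM of 12 adipocyte genes was 507 in NC replicate 6, the lowest of its group, in which the next was 9269. The same mouse had the least Lrrn4 of all mice and 452 FPKM of Krt18. The summed FPKM of 4 testis germ cell genes was 21.0 in SZ-A replicate 7, where the next was 6.29. Most of that sum was Odf2, at 16.9 FPKM. Hspa1l and Ddx4 were also the highest of their group in replicate 7, at 2.58 and 1.41 FPKM, but Dazl, at 0.110 FPKM, was not. That mouse also had the most Krt18, Krt19 and Spint2 of its group.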

How the results depend on the processing

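With the mean level of the epididymis genes as a covariate, the number of members past the threshold was 0 in HFD against NC, where it had been 3, and 2 in SZ-A against HFD, where it had been 1 (Krt18 and Krt19 lower, with log2 differences of -2.43 and -2.30, in place of Spint2 higher). Over all genes, 756 passed as higher and 811 as lower in the first of these fits, and 136 and 69 in the second. The covariate rests on 2 genes that themselves differed between groups. The sign of Lrrn4 in HFD against NC turned with that covariate (-1.37), with array quality weights (-0.044) and without NC replicate 6 (-0.041). Leaving out 1 mouse at a time, that value ran from -0.041 to 0.61. The sign of Krt19 in SZ-A against HFD turned with a pseudocount of 0.01 (-0.42) or 0.1 (-0.11) and with voom on recovered reads (-0.30). Without SZ-A replicate 7 it was -0.036, and without single mice it ran from -0.036 to 0.85. In SZ-A against NC, 1 member (Krt19) passed with all 3 groups in the fit and with array quality weights. Without single mice that count ran from 0 to 1, the 1 being without NC replicate 3. The cause of these changes was not tested. Without single mice the count stayed at 3 in HFD against NC and at 1 in SZ-A against HFD.

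Replicate numbers did not pair mice: correlations of the deviations of mice with the same number ran from -0.284 to 0.297, -0.389 to 0.371 and -0.410 to 0.584 in the 3 comparisons, and 4 of 19 mice were closest to their own number. With the replicate block the counts were 3, 1 and 0. Depth limits the lowest values, since 1 read was all there was of Krt18 and Krt19 in SZ-A replicate 6.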
